A study of Mus musculus with 8 samples.

Results

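The 37 genes described here encode the mitochondrial pyruvate carrier, the pyruvate dehydrogenase (PDH) complex with its kinases and phosphatases, enzymes of the tricarboxylic acid (TCA) cycle without complex II, the NADP-dependent isocitrate dehydrogenases, the malic enzymes, pyruvate carboxylase, and the malate-aspartate shuttle. They were chosen by gene symbol from a table of read counts with 48440 entries. All 37 were in the table, and all 37 were among the 13771 genes with enough counts to be tested. The lowest count of any of them in any library was 66, for Pdp2.

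The libraries were made from purified cardiomyocytes, the contracting muscle cells of the heart, of C57BL6/J mouse pups at postnatal day 2. A male heart and a female heart were taken from each of 4 litters, which gives 8 libraries, 4 per sex and 2 per litter. Strain and age were the same in all groups, and no treatment or altered allele is named. A litter is known only by its number, so that parentage, collection and cell purification cannot be told apart as sources of a difference between litters.

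Pyruvate made by glycolysis enters the mitochondrion through the pyruvate carrier. The PDH complex turns it into acetyl-CoA, which citrate synthase feeds into the TCA cycle. PDH kinases switch the complex off by phosphorylating its E1 alpha subunit, and PDH phosphatases switch it back on. The malate-aspartate shuttle carries the reducing equivalents of cytosolic NADH into the mitochondrion. Around birth the mouse heart moves from glucose and lactate toward fatty acids as fuel, and PDH kinases are known for sparing pyruvate when fatty acids are burned.

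Total counts ran from 14226342 in the female of litter 3 to 24910243 in the male of litter 1. The 37 genes took 1.72% to 1.92% of the counts of a library. Transcripts of the mitochondrial genome took 13.4% to 15.2% in 7 libraries and 18.5% in the male of litter 4. The 12 cardiomyocyte markers summed to between 77950 and 98070 CPM (counts scaled to a common library size), whereas the 10 fibroblast markers summed to between 43.0 and 271 CPM and the 10 macrophage markers to between 5.46 and 10.4 CPM. In bulk RNA, fewer cells of a type and less RNA per cell cannot be told apart.

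Levels of different genes were compared per length, as CPM per kilobase of exon. The most abundant transcript was Idh2, the mitochondrial NADP-dependent isocitrate dehydrogenase, at 930 ± 59.0 CPM per kilobase (SD, n = 8). It was followed by Mdh1, the cytosolic malate dehydrogenase of the shuttle, at 826 ± 80.0 CPM per kilobase. These values overlapped in part, with 865 to 1030 CPM per kilobase for Idh2 and 723 to 925 for Mdh1. Mdh2, the malate dehydrogenase of the TCA cycle, followed at 331 ± 31.1, Pdha1, the E1 alpha subunit of PDH, at 291 ± 18.7, and Cs, citrate synthase, at 226 ± 18.6 CPM per kilobase. Ogdh, Idh3g and Idh3b lay within each other's spread at 207 ± 31.8, 203 ± 19.6 and 199 ± 12.4 CPM per kilobase. At the low end were Pdp2, a PDH phosphatase, at 0.732 ± 0.080, the mitochondrial malic enzymes Me2 and Me3 at 0.949 ± 0.209 and 2.23 ± 0.237, and Pcx, pyruvate carboxylase, at 1.65 ± 0.279 CPM per kilobase. Transcripts of the complex that oxidises pyruvate thus stood far above the transcript of the enzyme that carboxylates it.

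**Figure D1:**
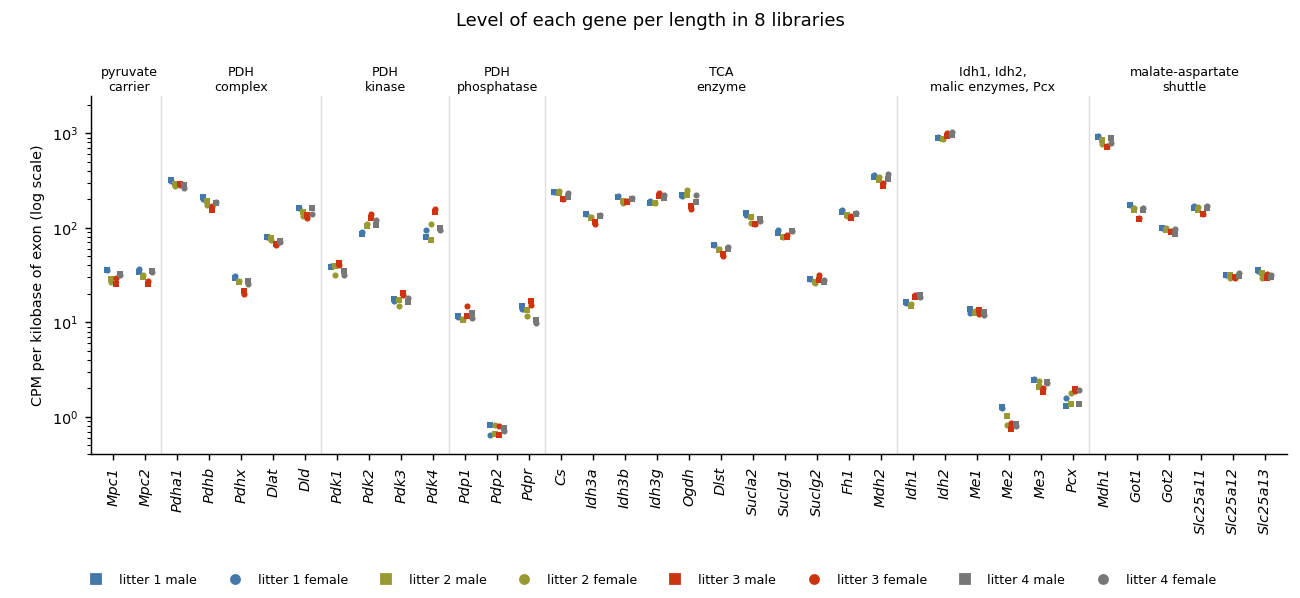
Level of each of the 37 genes in each library, in CPM per kilobase of exon on a log axis, grouped by role, with squares for males, circles for females and 1 colour per litter. Idh2 and Mdh1 stand at the top and Pdp2 at the bottom (0.732 CPM per kilobase on average), and the 8 libraries of a gene lie close together compared with the distance between genes.

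Within families, 1 or 2 forms held most of the transcripts. Of the summed level of the 4 PDH kinases, Pdk2 held 40.8% ± 2.86, Pdk4 38.7% ± 4.21, Pdk1 13.9% ± 2.39 and Pdk3 6.57% ± 0.83 (SD, n = 8). Pdk2 and Pdk4 overlapped, so their order was not resolved. Of the 2 PDH phosphatases, Pdp1 held 94.1% ± 0.687. Of the malic enzymes, the cytosolic form Me1 held 80.1% ± 1.94. Sucla2, the ATP-forming beta subunit of succinyl-CoA synthetase, stood at 4.42 ± 0.526 times the level of Suclg2, the GTP-forming one. The pyruvate carrier subunits Mpc1 and Mpc2, which act as a pair, had a ratio of 0.971 ± 0.070, and the aspartate-glutamate carriers Slc25a12 and Slc25a13 one of 0.970 ± 0.065. Such levels depend on the length given to a gene. With the longest transcript in place of all exons, Pdk2 held 45.8% and Pdk4 31.2% of the kinase transcripts, Me1 held 61.7% of the malic enzyme transcripts and Me3 30.0% in place of 13.98%, and Sucla2 stood at 5.76 times Suclg2. Mdh2 then had 734, Cs 434, Pdha1 382 and Me3 7.29 CPM per kilobase, so that Cs stood above Pdha1. Idh3b at 333 ± 20.7 stood above Idh3g at 263 ± 25.4 and Ogdh at 274. Me2 (2.04 ± 0.450) and Pcx (1.89 ± 0.319) lay within each other's spread.

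Several levels are uncertain because reads can belong to another gene. Of the 100-base windows of the longest transcript, 25.3% for Got2, 19.7% for Mpc1, 17.2% for Me1, 11.9% for Suclg2 and 6.68% for Me3 also occur in other annotated genes, as do windows of Pdha1, which are shared with Map3k15. Genes on the opposite strand overlap 23.1% of the exon bases of Mpc1 (4930506C21Rik) and 16.2% of those of Pdha1 (Map3k15), and whether the counting used the strand is not given in the sources used here.

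More of the 37 genes passed the test by litter than by sex. In the test of the 4 litters together, 24 of the 37 genes passed an adjusted p of 0.05 (edgeR's quasi-likelihood test), which is 64.9%, against 32.1% of all tested genes. Pdpr, Pdk2 and Pdk4, all regulators of the PDH complex, had the smallest adjusted p-values, at 0.000381, 0.000499 and 0.000659. Got1, Pdhx and Mpc2 followed, at 0.00202, 0.00295 and 0.00302. By role, 3 of 4 PDH kinases, 4 of 5 PDH subunits, both carriers, 8 of 11 TCA enzymes, 3 of 6 shuttle genes, 1 of 3 phosphatase genes (33.3%, near the share of all tested genes) and 3 of the 6 genes for Idh1, Idh2, the malic enzymes and pyruvate carboxylase passed. The count rested on litter 3: without it 5 genes passed (Mpc1, Pdk2, Pdpr, Idh1 and Me2), against 1898 of 13899 genes in all, a similar share. The count also fell without either library of litter 1, to near the share of all tested genes, and without either library of litter 3.

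Each litter was then set against the mean of the other 3. These comparisons share libraries and are given side by side, not as support for each other. Litter 3 moved the most genes, with 22 of 37 past the threshold, against 28.3% of all tested genes. Of them 6 were higher, which is 16.2% and close to the 13.6% of all tested genes, and 16 were lower, which is 43.2%, against 14.8%. The median log2 difference was -0.10 over the 37 genes and 0.00013 over all tested genes. Without the male or without the female of litter 3, fewer of the 37 genes and fewer of all tested genes passed. The median difference over the 37 genes was then -0.089 and -0.175, and that over all tested genes -0.0032 and -0.0063. With all libraries, scaled by their totals alone, the split of the litter 3 calls was 8 higher and 12 lower. That of all genes moved from 1871 higher and 2032 lower to 2419 and 1698.

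By role, all 4 PDH kinases rose in litter 3, where 13.6% of all tested genes were higher. Of 5 PDH subunits 4 fell, as did both subunits of the pyruvate carrier, where 14.8% of all tested genes were lower, while Pdha1, the subunit that the kinases phosphorylate, did not pass. The calls of Pdk1, Pdk3, Dlat, Dld and Mpc1 were each lost in 5 to 9 of 15 alternative settings. Both litter 3 libraries lay above the other 6 for 5 of the 37 genes, namely Pdk1, Pdk2, Pdk3, Pdk4 and Pdpr, which at 13.5% is close to the 15.1% of all tested genes. Both lay below the other 6 for 14 of the 37, which is 37.8%, against 16.4% of all tested genes.

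**Figure D2:**
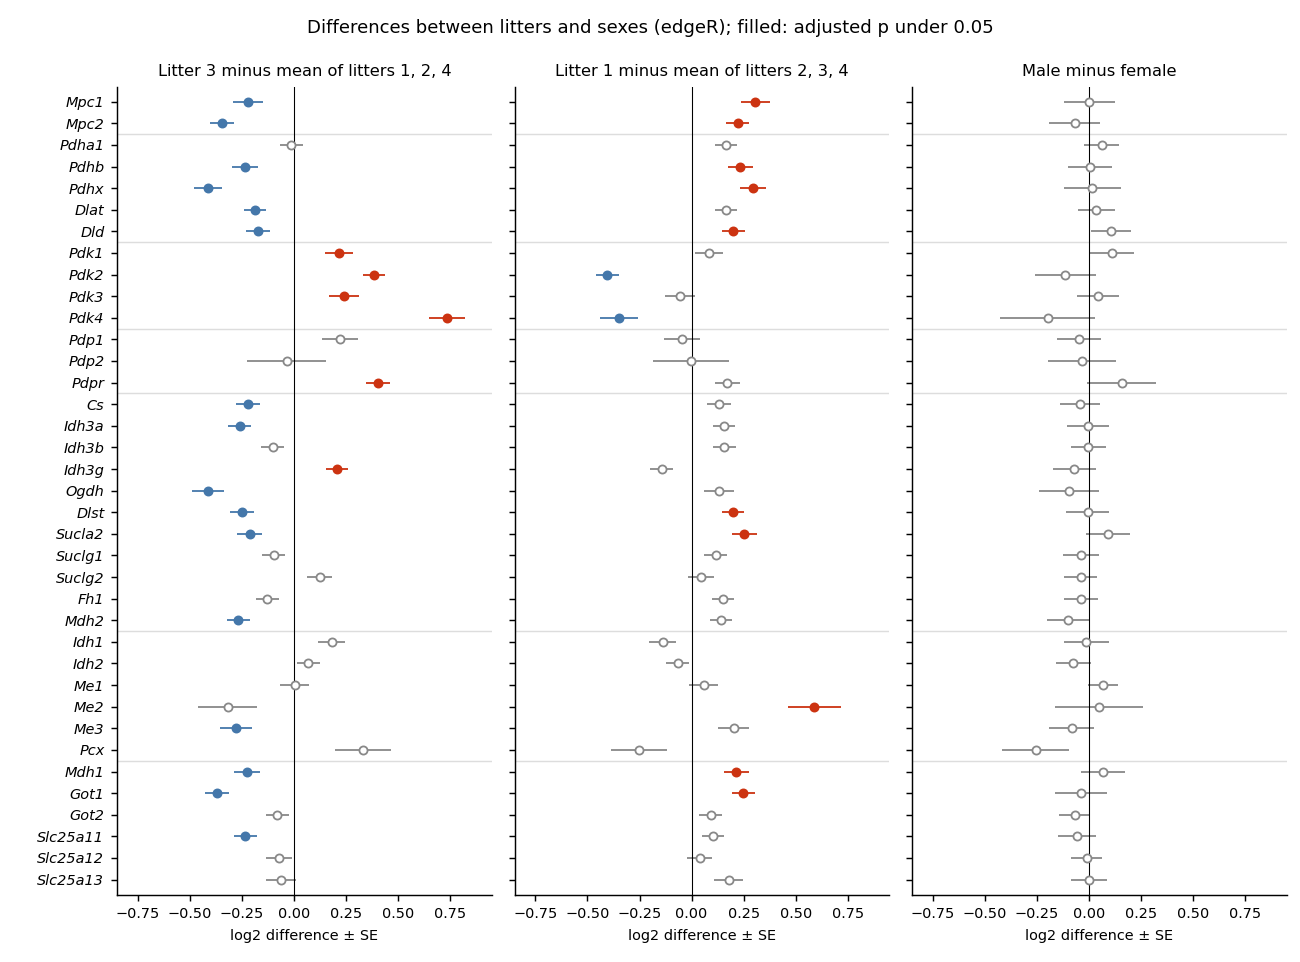
Log2 difference of each gene, in CPM on the log2 scale with its SE, for litter 3 and litter 1 against the mean of the other 3 litters and for male minus female. Filled points passed an adjusted p of 0.05. The 4 kinases lie right of 0 and most carrier, PDH and TCA genes left of 0 in litter 3, Pdk2 and Pdk4 lie left of 0 in litter 1, and no point is filled for sex.

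Pdk4, the kinase known for its response to fasting and fatty acids, changed most. Pdk4 (chr6:5483351-5496309, minus strand, GRCm38) had 278, 262, 511 and 347 CPM in the males of litters 1 to 4 and 333, 382, 555 and 333 CPM in the females. Both litter 3 hearts stood above all others, whose highest value was the 382 CPM of the litter 2 female. The log2 difference was 0.73 (SE 0.087, adjusted p = 0.00011), a 1.66-fold higher level. Pdk2, the kinase found in most tissues (chr11:95026258-95041354, minus strand), had 272, 329, 405 and 336 CPM in the males and 288, 346, 439 and 380 CPM in the females. It rose by 0.38 in litter 3 (SE 0.053, adjusted p = 0.00034), and the lowest 2 values were those of litter 1.

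Pdk1, a kinase known as a target of hypoxia signalling, had 297, 304, 328 and 272 CPM in the males and 304, 244, 316 and 249 CPM in the females. Pdk3, an X-linked kinase, had 44.7, 43.7, 51.8 and 42.5 CPM in the males and 42.7, 38.5, 49.95 and 46.6 CPM in the females. For both genes the litter 3 libraries were the highest 2, by a narrow margin. They passed the threshold at adjusted p-values of 0.0333 and 0.0283. Pdk1 missed it without the male of litter 1, the female of litter 2 or either library of litter 3 (0.0607 to 0.284), and Pdk3 without the males of litters 1, 3 or 4 or the females of litters 1, 2 or 3 (0.052 to 0.169). Pdk1 also missed it without a sex term (0.0819) and Pdk3 in DESeq2 (0.0626).

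Of the 3 phosphatase genes, Pdpr alone passed. Pdpr, the regulatory subunit that restrains PDH phosphatase (chr8:111094630-111137074, plus strand), had 75.3, 68.0, 85.4 and 53.5 CPM in the males and 69.1, 58.4, 77.4 and 48.9 CPM in the females. Litter 3 was highest and litter 4 lowest in both sexes. The log2 difference was 0.40 for litter 3 (SE 0.060, adjusted p = 0.000512). The catalytic subunits Pdp1 and Pdp2 did not pass: Pdp1 had 53.0 and 66.3 CPM in litter 3 and 47.8 to 56.1 CPM elsewhere, and Pdp2 had 3.69 and 4.54 CPM in litter 3 and 3.62 to 4.72 CPM elsewhere. Pdp1 passed as higher in 4 alternative settings, with library totals alone (adjusted p = 0.0312), without a filter on low counts (0.0281), without the male of litter 3 (0.0144) and without the male of litter 4 (0.0332).

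**Figure D3:**
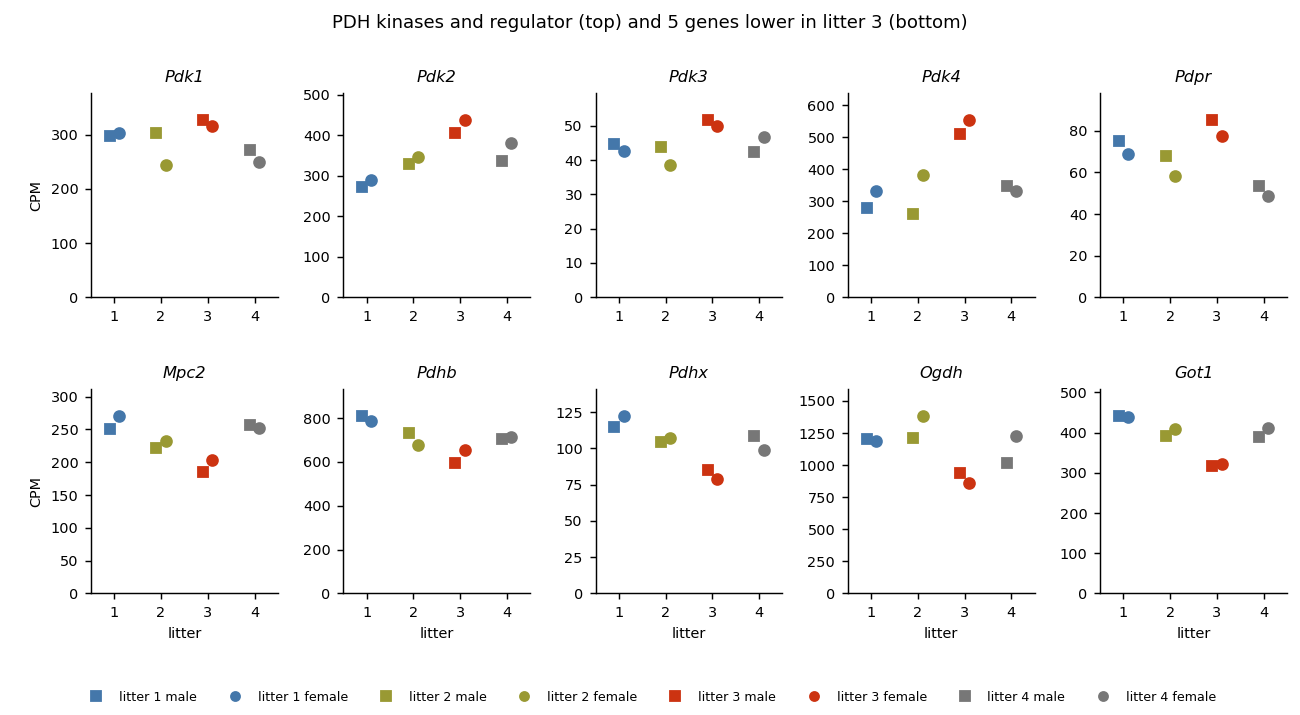
CPM of 10 genes by litter, on axes that start at 0, with squares for males and circles for females. In the top row (the 4 PDH kinases and Pdpr) both litter 3 points are the highest, with Pdk4 at 511 and 555 CPM, and in the bottom row (Mpc2, Pdhb, Pdhx, Ogdh and Got1) both litter 3 points are the lowest.

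Among the PDH subunits, Pdhx fell most. Pdhx, the E3-binding protein that docks dihydrolipoamide dehydrogenase on the core (chr2:103021075-103073513, minus strand), had 115, 104, 84.95 and 109 CPM in the males and 123, 107, 79.1 and 99.1 CPM in the females. The litter 3 values were the lowest 2, with a log2 difference of -0.41 (SE 0.067, adjusted p = 0.000967), 1.33-fold lower. Pdhb, the E1 beta subunit, had 595 and 656 CPM in litter 3 and 678 to 811 CPM elsewhere. Dlat, the E2 core enzyme, had 332 and 320 CPM in litter 3 and 345 to 394 CPM elsewhere. Dld, the E3 enzyme that PDH shares with other ketoacid dehydrogenases, had 509 and 471 CPM against 488 to 595, so that its libraries overlapped. Pdha1, the E1 alpha subunit that carries the phosphorylation sites, was the exception: it had 1098 and 1058 CPM in litter 3 and 975 to 1187 CPM elsewhere (adjusted p = 0.885). The call of Pdhx held in all 15 alternative settings. Without the male of litter 3 the difference of Pdhb shrank to -0.14 (adjusted p = 0.26). Dlat missed the threshold without any one library of litters 1 or 3 (0.0523 to 0.181), and Dld without any 1 of 7 libraries, all but the female of litter 4 (0.0529 to 0.211). With library totals alone Dlat and Dld missed it at 0.0668 and 0.111, and Dld without a sex term at 0.117.

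Both subunits of the pyruvate carrier fell as well. Mpc2 (chr1:165460637-165481214, plus strand) had 251, 222, 185 and 256 CPM in the males and 271, 232, 204 and 252 CPM in the females. Both litter 3 values lay below the other 6, with a log2 difference of -0.35 (SE 0.059, adjusted p = 0.00123). Mpc1 had 53.3 and 60.6 CPM in litter 3 and overlapped with litter 2, at 60.6 and 55.7 CPM. Its call (adjusted p = 0.0365) was lost without any 1 of the 4 males or the female of litter 1 (0.0539 to 0.517), and without the male of litter 3 its difference shrank to -0.099. It was also lost with library totals alone (0.0776) and in DESeq2 (0.0779).

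Of the 11 TCA enzymes, 6 fell (54.5%, against 14.8% of all tested genes) and 1 rose (9.09%, against 13.6%) in litter 3. Ogdh, the E1 subunit of 2-oxoglutarate dehydrogenase, had 1204, 1209, 937 and 1015 CPM in the males and 1190, 1384, 864 and 1226 CPM in the females. The litter 3 values were the lowest 2, with a difference of -0.41 (SE 0.076, adjusted p = 0.00209). Dlst, the E2 subunit of the same complex, had 508 and 485 CPM against 560 to 629, a difference of -0.25 (SE 0.056, adjusted p = 0.00681). Mdh2 had 992 and 1053 CPM against 1145 to 1307, a difference of -0.27 (SE 0.055, adjusted p = 0.00396). Cs had 1162 and 1153 CPM against 1219 to 1410.0, a difference of -0.22 (SE 0.057, adjusted p = 0.0133). Sucla2 had 440 and 437 CPM against 448 to 573 and also fell. For these 5 genes no litter 3 library reached the range of the others.

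The 3 subunits of NAD-dependent isocitrate dehydrogenase, which act in 1 enzyme, parted in litter 3. Idh3a, the catalytic alpha subunit, had 580 and 559 CPM against 645 to 711 elsewhere, a difference of -0.26 (SE 0.055, adjusted p = 0.00432). Idh3g, the X-linked regulatory gamma subunit, passed in the other direction (adjusted p = 0.0149), with 589 and 625 CPM against 497 to 605. Idh3b did not pass, with 640 and 652 CPM against 633 to 748. The remaining TCA genes Suclg1, Suclg2 and Fh1, fumarase, did not pass either.

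With 1 library left in litter 3, several TCA calls were lost. Without the female, Ogdh (-0.29, adjusted p = 0.071), Dlst (-0.20, adjusted p = 0.132), Mdh2 (-0.26, adjusted p = 0.0606) and Idh3a (-0.23, adjusted p = 0.089) missed the threshold. Cs missed it without the male of litter 1 or without either library of litter 3 (0.0545 to 0.174). Idh3g and Sucla2 missed it without the female of litter 1 or either library of litter 3, at 0.0512 to 0.157 and 0.0554 to 0.229. Sucla2 also missed it with library totals alone (0.051) and without a sex term (0.0531). The direction of each held in all of these.

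In the malate-aspartate shuttle, 3 of 6 genes fell in litter 3, where 14.8% of all tested genes were lower. Got1, the cytosolic aspartate aminotransferase (chr19:43499752-43524605, minus strand), had 442, 391, 317 and 388 CPM in the males and 439, 409, 321 and 411 CPM in the females. Its litter 3 values were below the rest, with a difference of -0.37 (SE 0.055, adjusted p = 0.000547), 1.29-fold lower. Mdh1 had 1855 and 1900.0 CPM against 1979 to 2375. Slc25a11, the 2-oxoglutarate-malate carrier, had 297 and 298 CPM against 330 to 363, a difference of -0.24 (SE 0.055, adjusted p = 0.00832). Got2, the mitochondrial aminotransferase, and the aspartate-glutamate carriers Slc25a12 and Slc25a13 did not pass. The call of Got1 held in all 15 alternative settings, that of Slc25a11 was lost without the female of litter 3 (0.126), and that of Mdh1 without the female of litter 1 (0.067) or the male of litter 3 (0.235).

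Of Idh1, Idh2, the 3 malic enzymes and pyruvate carboxylase, Me3 fell (16.7%, near the 14.8% of all tested genes) and the other 5 did not pass. Idh1 passed as higher in 3 alternative settings, at adjusted p-values of 0.0204 to 0.0478. Me3 had 27.1 and 29.2 CPM against 30.0 to 36.7, and its call (adjusted p = 0.0193) was lost without either library of litter 3 (0.142 and 0.0974) and in DESeq2 (0.0618). Idh2, the most abundant transcript of the 37, had 2397 and 2588 CPM in litter 3 and 2237 to 2665 CPM elsewhere.

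Ratios between genes of a library do not depend on how the library is scaled, but they do depend on the length given to each gene. With the longest transcript the mean over the 8 libraries moved from 0.402 to 0.737 for Mdh2 to Mdh1, from 0.624 to 0.964 for Got2 to Got1 and from 0.645 to 0.976 for Idh3a to Idh3g. A change of length multiplies a ratio of 2 genes by the same factor in every library. The ratio of Idh3a to Idh3g, in levels per kilobase, was 0.525 and 0.476 in litter 3 and 0.609 to 0.755 elsewhere. That of Pdhb to Pdha1 was 0.524 and 0.600 against 0.627 to 0.710, and that of Sucla2 to Suclg2 was 3.90 and 3.49 against 4.27 to 4.99. The ratio of Got2 to Got1 was higher in litter 3, at 0.715 and 0.730 against 0.570 to 0.617. The share of Pdk4 among the 4 kinases was 43.3% and 44.3% in litter 3 and 31.7% to 41.1% elsewhere. These 5 were named after their values were seen. The complementary shares of Pdp1 and Pdp2 were counted once. Then 10 of 17 ratios and shares had both litter 3 libraries outside the range of the other 6. Of these, 5 lay above (29.4%) and 5 below (29.4%), against 15.1% and 16.4% of all tested genes taken singly. No such share was taken over ratios of other genes. Most of the 10 hold a gene that passed by itself in litter 3, and shares within a family are tied to each other. The other 7 overlapped, among them Mpc1 to Mpc2, Slc25a12 to Slc25a13 and the shares of Pdk1, Pdk2 and Pdk3. Mdh2 to Mdh1 did overlap, at 0.385 and 0.399 against 0.370 to 0.464, and both of its genes fell.

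**Figure D4:**
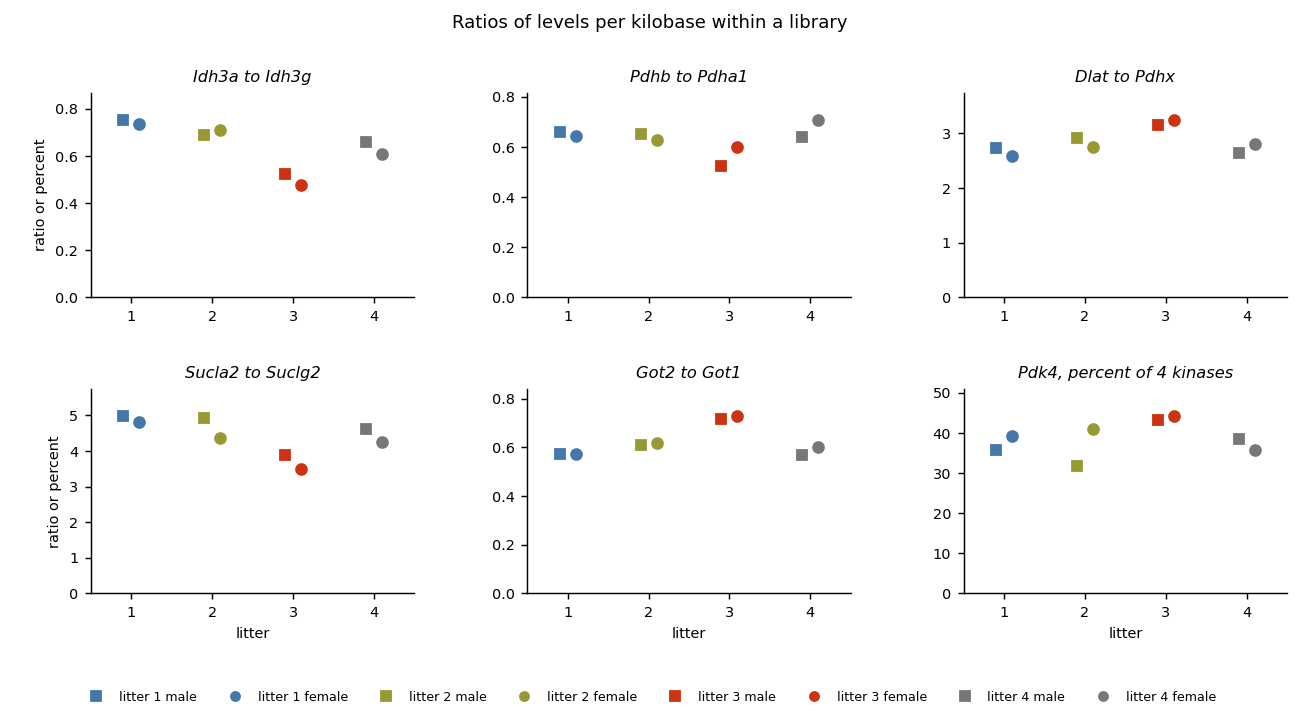
Ratios of levels per kilobase within each library, and Pdk4 as a percent of the 4 PDH kinases, by litter, on axes that start at 0, with squares for males and circles for females. The panels are 6 of the 10 of 17 ratios in which both litter 3 points lie outside the other 6, with Idh3a to Idh3g at 0.525 and 0.476. Most of the 10 hold a gene that passed by itself in litter 3.

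Markers of other cell types moved with litter 3, and their part in these results was not tested. Of the fibroblast markers, 8 of 10 were lower, with a summed level of 43.0 to 63.1 CPM against 125 to 271 elsewhere. Endothelial markers were lower for 7 of 10 (21.0 to 21.9 against 18.4 to 169 CPM), mural markers for 5 of 9 (925 to 951 against 1342 to 1468 CPM) and adipocyte markers for 2 of 2 tested of 7. Acta2 carried most of the change in the mural sum, with 369 and 343 CPM in litter 3 and 804.5 to 1037 CPM elsewhere. The other lower mural markers stood at 11.96 CPM or less in every library. Of 7 tested epicardial markers 3 were lower and 1, Tbx18, higher, and of 6 tested erythroid markers 2 were higher, with sums of 189 and 544 CPM against 100 to 250. None of the 3 tested macrophage and 2 tested Schwann and neural markers passed. The macrophage marker Fcgr1 and the adipocyte marker Lep were at 0 in all libraries. Of the cardiomyocyte markers 6 of 12 were lower, Myh6 by 0.61 and Actc1 by 0.67 on the log2 scale among them, and Nppa was higher by 2.26, while their sum was 77950 to 78750 CPM against 84940 to 98070. The mitochondrial genome's share was 14.7% and 15.0% in the litter 3 libraries, within the range of the rest.

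The stretch before the start site was read for short words that known regulators bind, in RefSeq windows of 300 bases (GRCm38.p6), from 250 before to 50 after a start. Windows were found for 34 of the 37 genes (45 windows, as some genes have several starts), and Pdp1, Idh3a and Me2 had none. Words were counted on both strands. ACGTG, the core of hypoxia response elements, stood in 35.6% of the 45 windows and in 19.6% of all 32851 windows, and CACGTG, the E-box, in 17.8% and 7.15%. The E-box contains ACGTG, so these counts overlap. Ogdh alone, with several nearby starts, supplied 6 of the 16 windows with ACGTG and 3 of the 8 with the E-box. Counted by gene, 11 of 34 (32.4%) held ACGTG, against 21.8% of all 27025 genes, and 6 of 34 (17.6%) the E-box, against 8.09%. ACGTG was found for 4 of the 6 genes higher in litter 3 and for 3 of the 15 lower ones with a window. TCAAGGTCA, the element of the estrogen-related receptors, and TGTTTAC, a FoxO word, were in none of the 45 windows, and in 0.423% and 3.65% of all. AAGGTCA, the core of the first, stood in 4.44% against 4.72%, and the NRF1 word GCGCATGC in 4.44% against 2.71%, with both windows those of Ogdh (1 of 34 genes, 2.94%, against 3.05% of all genes). A word in a window is a description, not a binding site. Shown here are the stretches around the word for Pdk2, Pdpr and Idh3g, which were higher in litter 3, and for Pdhb, which was lower, each 5′ to 3′ on the gene's strand with the word in capitals.
Pdk2 (chr11:95041452-95041537, minus strand, word 126 bases before the start): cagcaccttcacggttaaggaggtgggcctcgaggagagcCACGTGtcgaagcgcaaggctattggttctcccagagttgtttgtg
Pdpr (chr8:111094533-111094618, plus strand, word 172 bases before the start): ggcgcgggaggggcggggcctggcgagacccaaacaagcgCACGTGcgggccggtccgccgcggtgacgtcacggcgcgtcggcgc
Idh3g (chrX:73787051-73787135, minus strand, word 198 bases before the start): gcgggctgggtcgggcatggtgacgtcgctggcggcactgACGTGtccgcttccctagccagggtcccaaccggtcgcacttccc
Pdhb (chr14:8173196-8173242, minus strand, word 248 bases before the start): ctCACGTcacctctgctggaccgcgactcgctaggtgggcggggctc
Pdk2 and Pdpr hold the E-box, whereas Idh3g holds the core alone and Pdhb its reverse complement at the far edge of its window. In all, the E-box was found for 2 of the 6 genes higher in litter 3 and for 1 of the 15 lower ones with a window. That lower gene is Ogdh, whose stretches are not shown. Pdk3, which was higher, and Mdh1, which was lower, hold the core and are not shown either.

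In litter 1, 12 of the 37 genes passed, against 13.3% of all tested genes. Of them 10 were higher, 27.0% against 7.86% of all tested genes, and 2 were lower, 5.41% against the same 5.41%. The lower ones were kinases. Pdk2 fell by 0.41 on the log2 scale (SE 0.056, adjusted p = 0.000781), with its 2 lowest values at 272 and 288 CPM, against 329 to 439 elsewhere. Pdk4 had a difference of -0.35 (SE 0.092, adjusted p = 0.0281), but at 278 and 333 CPM its libraries lay inside the range of the others. The higher ones were both carriers, Pdhb, Pdhx and Dld of the PDH complex, Dlst and Sucla2 of the TCA cycle, Mdh1 and Got1 of the shuttle, and Me2. Me2, the NAD-dependent malic enzyme of mitochondria, had 9.23, 7.32, 5.34 and 6.09 CPM in the males and 9.09, 5.98, 6.19 and 5.79 CPM in the females. Litter 1 was highest in both sexes, with a difference of 0.59 (SE 0.127, adjusted p = 0.0107). For Mpc1 the difference was 0.31 (SE 0.068, adjusted p = 0.013), for Pdhx 0.30 (SE 0.063, adjusted p = 0.0101) and for Got1 0.25 (SE 0.053, adjusted p = 0.00997).

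The litter 1 calls rested in part on litter 3, one of the litters it was compared with. Without litter 3, 4 of the 37 genes passed, which were Mpc1, Pdk2 and Me2 of the 12 and Pdpr, against 977 of 13899 genes in all. The difference of Pdk4 then shrank to -0.12 (adjusted p = 0.497). Without the male or without the female of litter 1, the calls of the higher genes and of Pdk4 were lost, as were most calls over all tested genes. The differences of Mpc1, for example, were then 0.29 and 0.32. Without a sex term 6 of the 12 passed, against 1257 of 13771 genes in all. Among the litter 1 libraries 3 of 10 fibroblast markers were higher, with sums of 125 to 185 CPM against 43.0 to 271, and 4 of 12 cardiomyocyte markers were higher and 1 lower. Of the mural markers 1 was higher and 2 were lower. Their part in the result was not tested.

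Litters 2 and 4 stood apart little. In litter 2 none of the 37 genes passed in edgeR's test, against 4.18% of all tested genes. Of the 37, 8 had an unadjusted p under 0.05, as had 2466 of 13771 genes in all, and DESeq2 called 1, against 432 in all. In litter 4 Pdpr alone passed, against 10.5% of all tested genes. Pdpr was lower by 0.49 on the log2 scale (SE 0.063, adjusted p = 0.00211), 1.40-fold, and its 53.5 and 48.9 CPM were the lowest of the 8 libraries. This call held in all 16 alternative settings. The male of litter 4 had the highest share of mitochondrial genome transcripts, and the part of that in the result was not tested.

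None of the 37 genes passed the test by sex. None reached an adjusted p of 0.05 in edgeR's test, against 0.0436% of all tested genes, none had an unadjusted p under 0.05, and DESeq2 called none. The smallest unadjusted p was that of Pcx, at 0.139, with a male-minus-female log2 difference of -0.26 (SE 0.160, adjusted p = 1). Pcx had 6.26, 6.45, 9.37 and 6.54 CPM in the males and 7.49, 8.55, 8.95 and 9.24 CPM in the females, so that the male of litter 3 stood above every female and the other 3 males below every female. The next were Dld (0.11, SE 0.096), Pdk1 (0.11, SE 0.105), Mdh2 (-0.099, SE 0.101) and Pdpr (0.16, SE 0.165), each with an adjusted p of 1. Single libraries moved these values by over 1.5 times: leaving out 1 library gave -0.41 (without the male of litter 3) to -0.20 for Pcx, 0.057 to 0.18 for Dld, 0.041 to 0.17 for Pdk1, -0.17 to -0.038 for Mdh2 and 0.051 to 0.26 for Pdpr. Without the male of litter 3, Pcx and Pdk4 had an unadjusted p under 0.05, as had 416 of 14007 genes in all, and none of the 37 passed.

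Comparing the sexes within litters narrowed the errors without bringing a gene past the threshold. With litter as a block, 0 of 37 genes passed, and 5 had an unadjusted p under 0.05, as had 1592 of 13771 genes in all. Those 5 were Pdpr, Pdk4, Pdk2, Pcx and Dld, of which Pdpr came nearest (adjusted p = 0.319), with a log2 difference of 0.15 (SE 0.053). The male was higher in all 4 litters for 4 genes (Pdha1, Dld, Pdpr and Sucla2), against 10.9% of all tested genes, and the female for 5 (Pdk2, Idh2, Idh3g, Mdh2 and Slc25a11), against 9.36%. Both counts are near those shares. The 3 X-linked genes had close levels in both sexes: Pdha1 had 1110.0 ± 53.0 CPM in males and 1064 ± 84.9 in females, Pdk3 45.7 ± 4.19 and 44.4 ± 4.93, and Idh3g 534 ± 44.8 and 561 ± 63.6 (SD, n = 4).

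Other genes of these pathways were read from 9 lists with 83 tested genes. In litter 3, 38 of the 83 passed (45.8%, against 28.3% of all tested genes), 18 higher (21.7%, against 13.6%) and 20 lower (24.1%, against 14.8%), and by sex 0. The clearest list was lactate and pyruvate exchange, with 7 of 10 lower, 0 higher and a median of -0.50. Ldha, the muscle-type lactate dehydrogenase subunit, had 578 and 603 CPM in litter 3 and 785 to 979 CPM elsewhere, a difference of -0.57 (SE 0.060, adjusted p = 4.67e-05). Pkm, pyruvate kinase, fell by 0.59 (SE 0.065, adjusted p = 6.8e-05), and Slc16a3, a lactate exporter, by 1.04 (SE 0.145, adjusted p = 0.000348). Ldhb, the heart-type subunit of lactate dehydrogenase, did not pass, with 1020.0 and 1100.0 CPM in litter 3 and 920 to 1059 CPM elsewhere. In litter 1, 5 of the 10 were higher, where 7.86% of all tested genes were, and of all 83 genes 20 passed, which is 24.1%, against 13.3% of all tested genes.

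Complexes that resemble PDH did not all follow it. Of the branched-chain ketoacid dehydrogenase list, which shares the E3 enzyme Dld with PDH, 4 of 6 genes rose in litter 3 (66.7%, against 13.6% of all tested genes) and 0 fell, with a median of 0.22. Ppm1k, the phosphatase that activates this complex, had 81.1 and 79.2 CPM in litter 3 and 50.5 to 60.0 CPM elsewhere, a difference of 0.56 (SE 0.063, adjusted p = 7.07e-05). Bckdha, its E1 alpha subunit, rose by 0.35 (SE 0.075, adjusted p = 0.00491). At 127 and 124 CPM in litter 3 it overlapped with litter 4, at 115 and 131 CPM, and it was lowest in litter 1, at 79.2 and 81.2 CPM. The share that passed was near the 28.3% of all tested genes for complex II and the rest of the TCA cycle (33.3%), for lipoylation and thiamine supply (27.3%) and for the other mitochondrial carriers (28.6%). Of complex II and the rest of the TCA cycle 3 of 12 fell and 1 rose: Dhtkd1, the E1 subunit of 2-oxoadipate dehydrogenase, rose by 0.79 (SE 0.117, adjusted p = 0.000512). Among the lipoylation and thiamine genes, 2 of 11 fell, the iron-sulfur factors Bola3 by 0.34 and Nfu1 by 0.31, and the thiamine transporter Slc19a3 rose by 0.83.

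Among genes that feed or drain the cycle, 4 of 11 rose (36.4%, against 13.6% of all tested genes) and 3 fell (27.3%, against 14.8%) in litter 3. Pck2, the mitochondrial phosphoenolpyruvate carboxykinase, had 18.7 and 20.4 CPM in litter 3 and 8.07 to 11.3 CPM elsewhere, a difference of 1.06 (SE 0.094, adjusted p = 1.42e-05). Ampd3 and Adssl1 of the purine nucleotide cycle fell by 0.69 and 0.51. In the glycerol phosphate shuttle Gpd1 and Gpd2 fell by 0.39 and 0.25, and Gpd1l rose by 0.31. Of 7 other mitochondrial carriers, Slc25a10 fell and Slc25a1 rose, and of 5 NADPH and deacylation genes Nadk2, the mitochondrial NAD kinase, rose by 0.41.

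Of 18 tested regulators known to act on PDH kinase and TCA genes, 5 rose (27.8%, against 13.6% of all tested genes) and 2 fell (11.1%, against 14.8%) in litter 3. Hif3a, a hypoxia-inducible factor subunit, had 14.5, 30.3, 81.4 and 38.6 CPM in the males and 16.4, 29.6, 95.8 and 39.7 CPM in the females. It was highest in litter 3 and lowest in litter 1, with differences of 1.75 (SE 0.067, adjusted p = 4.68e-08) and -1.61 (adjusted p = 1.43e-06). Epas1, another such subunit, fell by 0.75 in litter 3 (SE 0.095, adjusted p = 0.000169). Rxra, Foxo3 and Ppargc1a, which encode a nuclear receptor, a forkhead factor and the coactivator PGC-1 alpha, rose by 0.30, 0.34 and 0.26. Ppara, the receptor for fatty acids known to drive Pdk4, did not pass there.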

How the data were processed

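Each library was made from column-purified RNA with a kit for strand-specific libraries of total RNA and read from 1 end, per the labels' protocols. The labels call the molecule poly(A) RNA, which conflicts with the kit. The values are raw counts, deposited by the authors as a single table indexed by gene symbol. Per the submitters' processing notes, STAR 2.7.3a and mm10 were used, and the counting program, annotation and strand setting are not given in the sources used here.

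Counts were analysed in R 4.3.3 with edgeR 4.0.16, with DESeq2 1.42.0 as an alternative. The filterByExpr function kept 13771 genes, and libraries were scaled by TMM. The quasi-likelihood F test was fitted on all genes, with sex alone (6 residual degrees of freedom) or litter and sex (3). Benjamini-Hochberg adjustment ran over all 13771 genes, with a threshold of 0.05. The SE is the log2 difference divided by the square root of F. CPM are TMM-scaled except in sums of markers. Lengths, positions and shared windows come from GENCODE M21 on GRCm38, which need not be the authors' annotation.

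The labels state that same-numbered samples share a litter. Male and female of a litter correlated across genes at 0.506, 0.503, 0.696 and 0.367 (deviations from sex means), and other pairs at -0.482 to 0.27, so litter as a block was an alternative. No library repeated another within sampling noise, with chi-square per degree of freedom at 10.3 or more within a sex.

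Members, gene lists and tests were chosen with earlier results of these data known. Differences were given for members past the threshold (the 12 with the smallest adjusted p in litter 3; the values of the others were named after they were seen), for sex for the 5 with the smallest unadjusted p, and for at most 5 genes of a list past the threshold (Ldhb and Ppara were named after their values were seen). Scripts were tested on simulated data. Results for some list genes are not reported here.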

Additional observations from a re-analysis of the deposited data

Results flagged for a closer look

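In 6 of 110 groups of 4 libraries of 1 sex, the CPM of a gene or a ratio had 1 library far from the other 3, by Dixon's 95% limit on its gap. Chance gives about 1 in 20, which is 5.5 here, so the number of such groups is near that. Pdp1 had 66.3 CPM in the female of litter 3 and 48.9 to 51.1 in the other females. Me2 had 9.09 CPM in the female of litter 1 and 5.79 to 6.19 in the others. Pcx had 9.37 CPM in the male of litter 3 and 6.26 to 6.54 in the other males. Slc25a11 had 298 CPM in the female of litter 3 and 356 to 363 in the others. The ratio of Pdhb to Pdha1 was 0.524 in the male of litter 3 and 0.641 to 0.661 in the other males. Pdk1 held 16.2% of the kinase transcripts in the female of litter 1 and 11.4% to 12.1% in the others.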

How the results depend on the processing

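None of the called litter differences, nor the 5 sex differences given, changed sign under any setting, while over all 37 genes, called or not, 34 to 37 kept their sign in litters 1 and 3. With the replicate block for litter, 29 genes in all differed by sex in place of 6, and 25, 22, 44 and 24 with the block and without litters 1 to 4 (added after seeing the data), while the 37 genes kept a count of 0. Without litter 3, 1898 genes in all differed by litter in place of 4427, and 5 of the 37 in place of 24. Without a sex term the counts were 14 for litter, against 3341 of 13771 genes in all, and 6 for litter 1, against 1257. Without litter 3, litter 1 had 4, against 977 of 13899 genes in all, and litter 4 had 4, against 1984. Litter 2 had 1 with library totals alone, with DESeq2 or without mitochondrial genes, and 2 without a filter on low counts. Litter 4 had 3 with library totals alone and 2 without a filter. Leaving out 1 library gave 7 to 24 for litter, 1 to 14 for litter 1, 0 to 2 for litter 2, 9 to 22 for litter 3 and 1 to 2 for litter 4. Over all tested genes, the counts for litter and for litter 3 were also lower without any 1 library than with all 8. A litter left with 1 library is assumed to vary like the others. In litter 3, 6 genes (Mpc2, Pdhx, Pdk2, Pdk4, Pdpr and Got1) passed in all 15 settings, and in litter 1 Pdk2 in all 16. The longest transcript as gene length moved 32 of 37 levels and 14 of 18 ratios by over 1 SD, and library totals alone moved 0. The cause of these changes was not tested. How depth limits these results was not tested.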
